A study of Mus musculus with 9 samples.

Results

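The transcripts of 37 cell cycle genes were measured in mouse embryonic stem (ES) cells. The cells were wild type, labelled as a knockout of the histone demethylase UTX, or labelled as depleted of the histone methyltransferase MLL4. The genes were taken by symbol from the deposited table of 33924 genes. They form 2 groups that are described apart: 19 genes of DNA replication and S phase entry, and 18 genes of mitosis. All 37 were found under their symbols, and all 37 passed the filter on low counts.

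The replication genes act in a known order. Cdc6 and Cdt1 load the ring-shaped MCM helicase (Mcm2 to Mcm7) onto origins before S phase, a step called licensing. Cdc45 and the GINS complex then join MCM to form the active helicase, PCNA clamps the polymerase to DNA, and ribonucleotide reductase and thymidylate synthase supply nucleotides. The mitosis genes encode the cyclins and kinase that drive entry into mitosis, the Aurora and Polo kinases, the checkpoint that holds cells until chromosomes are attached, and motors and structural proteins of the spindle, kinetochore and chromosomes. In most cells both sets are transcribed in waves, the first around the start of S phase under E2F factors, the second in G2 and mitosis under complexes that bind CHR and CCAAT elements. Mouse ES cells cycle fast, with a short G1 phase, and hold these genes at high levels.

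The cells were male mouse ES cells, grown on gelatin in medium with LIF and 15% serum and given no treatment, per the labels. The wild type group (UTX Wildtype, JM8A in the titles), the UTX knockout group (UTX Knockout, A6 in the titles) and the labelled MLL4 knockdown group (MLL4 Knockdown, JM8A followed by a further number in the titles) had 3 libraries each. What A6 and that number stand for is not explained, no clone is named, and neither the allele of the knockout nor the agent of the knockdown is given. Line or clone and perturbation cannot be told apart in these groups. UTX removes methyl groups from lysine 27 of histone H3, and MLL4 methylates lysine 4 of histone H3 at enhancers. Both belong to COMPASS-like complexes of the MLL3 and MLL4 type. The comparisons ask which transcripts differ between the groups with these labels. Levels of both proteins were not measured. Whether replicates are separate cultures is not stated, so the p-values measure the spread between these libraries alone, and that spread may be technical.

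Kdm6a, the gene of UTX, stood at 89.0, 57.1 and 90.6 CPM (read counts scaled to a common library size) in the wild type libraries, at 12.8, 16.9 and 19.4 in the UTX knockout and at 113, 108 and 99.8 in the labelled MLL4 knockdown. The knockout libraries were below all others. The row listed as Mll2 was read as Kmt2d, the gene of MLL4, since Kmt2b is listed under its older symbol Wbp7. It stood at 86.2, 43.5 and 119 CPM in wild type, at 109.7, 96.9 and 130.1 in the UTX knockout and at 71.0, 72.0 and 73.4 in the labelled MLL4 knockdown. The labelled knockdown lay inside the wild type range, whose lowest library is replicate 2, and below wild type replicates 1 and 3 (log2 fold change -0.20, adjusted p = 0.624). It was below every UTX knockout library, by a log2 fold change of -0.64 (adjusted p = 0.0987, and 0.0376 with the replicate number as a block). A fall against wild type was thus not shown, and the group is called by its label throughout. Wild type replicate 2 also departs from replicates 1 and 3 by transcript length, as described further below. The part of this departure in the Kmt2d values was not tested.

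Total counts lay between 18570746 and 23874816 a library, and the lowest count of any of the 37 genes in any library was 516. The 10 markers of ES cells summed to 5178 to 6217 CPM in wild type, to 6489 to 7078 in the UTX knockout and to 6511 to 7178 in the labelled MLL4 knockdown. The 8 markers of feeder cells or fibroblasts summed to 13.7 to 24.5, 9.47 to 10.3 and 3.44 to 4.87 CPM in these groups, with Lum at 0 in all libraries. The 6 markers of trophectoderm summed to 124 to 523, 77.6 to 117 and 64.2 to 70.0 CPM. The 6 markers of primitive endoderm summed to 11.9 to 15.6, 13.0 to 17.0 and 22.3 to 24.7, the 3 listed markers of neuroectoderm to 130 to 173, 46.6 to 55.1 and 52.8 to 64.6, and the 4 of mesendoderm to 12.2 to 19.2, 12.9 to 17.1 and 13.3 to 20.02. The part of these sums in the results below was not tested. Replicate 2 of wild type stood apart by transcript length, as described with the mitosis genes. Genes on chromosome 8 had a median log2 fold change of -0.44 in the UTX knockout and -0.42 in the labelled MLL4 knockdown against wild type, and those on chromosome 4 of -0.15 and -0.22. The medians of the 18 other chromosomes beside Y lay between -0.03 and 0.09 and between -0.04 and 0.11. The 4 tested genes on Y had medians of -3.93 and -4.18 in these comparisons, and 100% of them were called lower in both. Between the perturbed groups their median was -0.02. What lies behind the low Y values was not tested.

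Promoters were compared between both gene groups because their members are known to be read in separate waves. RefSeq promoters on GRCm38.p6, from 250 bases before to 50 bases after each start, were found for 30 of the 37 genes: 16 promoters of 15 replication genes and 15 promoters of 15 mitosis genes. Mcm4, Gins1, Gins2, Ccne2, Ccna2, Aurkb and Tpx2 had no entry. The letters searched on both strands were TTTGAA for the CHR element, and CCAAT for the CCAAT box. For E2F the search took TTCGCGC first, then also TTGGCGC, after it TTCCCGC, and lastly TTGCCGC. The E2F letters can overlap each other on opposite strands. The stretches below lie before the start, read 5′ to 3′ along the gene, with these letters in capitals. They show 6 mitosis genes and then 2 replication genes whose values are given further on.
Cdc20: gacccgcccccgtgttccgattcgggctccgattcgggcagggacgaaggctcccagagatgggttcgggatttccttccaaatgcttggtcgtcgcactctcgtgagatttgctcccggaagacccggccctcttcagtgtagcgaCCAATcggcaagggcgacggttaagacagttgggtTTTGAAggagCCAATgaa
Aurka: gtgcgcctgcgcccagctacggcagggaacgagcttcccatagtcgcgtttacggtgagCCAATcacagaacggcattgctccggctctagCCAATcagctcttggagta
Plk1: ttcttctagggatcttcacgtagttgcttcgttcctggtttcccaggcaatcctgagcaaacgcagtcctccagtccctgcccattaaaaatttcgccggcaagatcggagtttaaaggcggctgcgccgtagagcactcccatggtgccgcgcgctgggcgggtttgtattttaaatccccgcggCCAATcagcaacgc
Ccnb2: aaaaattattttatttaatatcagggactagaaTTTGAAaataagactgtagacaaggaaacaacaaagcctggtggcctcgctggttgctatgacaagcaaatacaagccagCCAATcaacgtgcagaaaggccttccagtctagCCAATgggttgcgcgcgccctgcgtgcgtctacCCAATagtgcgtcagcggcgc
Mki67: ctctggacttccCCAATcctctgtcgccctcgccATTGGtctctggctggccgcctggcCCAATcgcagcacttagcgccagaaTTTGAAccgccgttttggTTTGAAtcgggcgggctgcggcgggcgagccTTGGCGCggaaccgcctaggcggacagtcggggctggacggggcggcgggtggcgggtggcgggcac
Kif11: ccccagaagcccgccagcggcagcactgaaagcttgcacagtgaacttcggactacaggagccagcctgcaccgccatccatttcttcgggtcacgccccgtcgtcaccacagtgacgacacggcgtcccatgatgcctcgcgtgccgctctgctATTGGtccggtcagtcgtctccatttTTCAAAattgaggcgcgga
Mcm5: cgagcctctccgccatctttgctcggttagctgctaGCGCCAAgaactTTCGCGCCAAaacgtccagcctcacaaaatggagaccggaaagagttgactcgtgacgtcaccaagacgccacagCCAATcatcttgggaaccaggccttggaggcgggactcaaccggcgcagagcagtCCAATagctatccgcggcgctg
Mcm6: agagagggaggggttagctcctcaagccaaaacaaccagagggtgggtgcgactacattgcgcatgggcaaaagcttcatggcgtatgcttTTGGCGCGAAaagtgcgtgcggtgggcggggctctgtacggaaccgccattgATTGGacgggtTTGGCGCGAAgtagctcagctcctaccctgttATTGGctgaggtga

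On GRCm38.p6 the Cdc20 stretch is chr4:118437344-118437543 on the minus strand, the Aurka stretch is chr2:172370571-172370680 on the minus strand, and the Plk1 stretch is chr7:122159235-122159434 on the plus strand. The Ccnb2 stretch is chr9:70421555-70421754 on the minus strand, the Mki67 stretch is chr7:135716380-135716579 on the minus strand, and the Kif11 stretch is chr19:37376182-37376381 on the plus strand. The Mcm5 stretch is chr8:75109309-75109508 on the plus strand, and the Mcm6 stretch is chr1:128359706-128359905 on the minus strand. Aurka is shown over 110 bases, beyond which an exon of a protein-coding gene begins, and each other gene over 200 bases. No annotated exon of a protein-coding gene lies in the stretches except the last 9 bases of the Cdc20 stretch, which belong to Cdc20 itself. Exons of other gene types were not checked.

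CHR letters were present in 11 of the 15 mitosis promoters (73.3%), in 2 of the 16 replication promoters (12.5%) and in 17.9% of all 32851 promoters in the table. CCAAT stood in 14 of the 15 mitosis promoters (93.3%), in 11 of the 16 replication promoters (68.8%) and in 37.4% of all promoters. E2F letters were present in 3 mitosis promoters (20%), in 10 replication promoters (62.5%) and in 9.57% of all. Several CHR matches lie just after the start, outside the printed stretches, as at 33 bases after the start in Aurka and 31 in Plk1. With only the 250 bases before the start, the CHR share fell to 40% of the mitosis promoters (6 of 15) beside 16.0% of all. A match of letters is a description of the sequence and was not tied to binding.

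Levels were compared between genes only per kilobase of annotated transcript. In wild type the most abundant of the 37 was Top2a, which encodes the topoisomerase that untangles sister chromatids, at 257 ± 35 CPM per kilobase (SD, n = 3). Pcna at 211 ± 18 and Rrm2, the small subunit of ribonucleotide reductase, at 211 ± 9.2 followed. Mcm5 at 176 ± 12, Mcm7 at 175 ± 17, Mcm3 at 164 ± 7.2 and Mcm2 at 163 ± 5.3 stood close together, within their SDs. Mcm6 at 125 ± 9.7 and Mcm4 at 108 ± 5.1 were the lowest of the 6 subunits of the MCM ring, which in the protein complex are present in equal number. The licensing factor Cdc6 at 18.3 ± 0.82, the GINS subunit Gins2 at 13.6 ± 1.9 and the cyclin Ccne2 at 8.88 ± 0.93 were the lowest 3 of all.

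**Figure D1:**
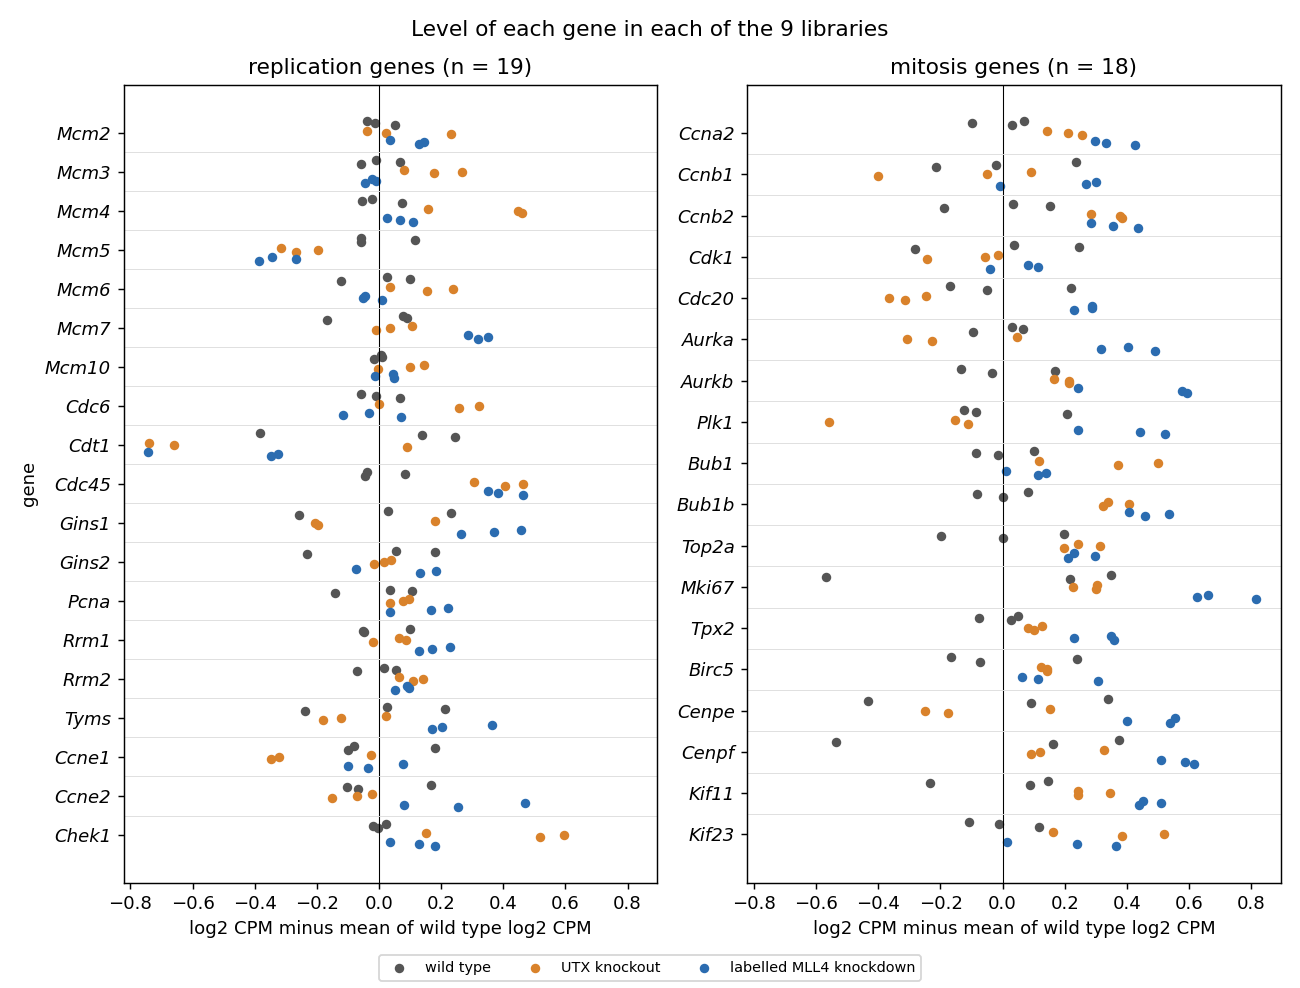
Each gene's log2 CPM minus the mean of its wild type log2 CPM (horizontal axis) in each of the 9 libraries, with replication genes on the left and mitosis genes on the right; each point is 1 library. In the right panel the points of the labelled MLL4 knockdown lie mostly to the right of 0, while in the left panel the points of all groups scatter around 0.

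The median of the 19 genes' log2 CPM minus the wild type mean was -0.06, 0.02 and 0.08 over the wild type libraries, ordered by value, 0.04, 0.06 and 0.08 over the UTX knockout and 0.04, 0.10 and 0.11 over the labelled MLL4 knockdown. The 3 groups overlapped. Between libraries of the same number the median difference of the 19 from wild type was 0.05, 0.03 and 0.18 in log2 for replicates 1, 2 and 3 of the UTX knockout and 0.07, 0.04 and 0.13 for the labelled MLL4 knockdown. In all 3 pairs 9 genes were higher and 2 lower in the former, and 10 and 2 in the latter. The share of all genes that did so was not computed, so these counts do not show a shift particular to replication genes. For the 18 mitosis genes the same median was -0.08, 0.0005 and 0.06 in wild type, 0.15, 0.17 and 0.18 over the UTX knockout and 0.29, 0.32 and 0.43 over the labelled MLL4 knockdown, with no overlap between the groups. Between same-numbered libraries the median difference of the 18 from wild type was less even in the UTX knockout. It was 0.03, 0.20 and 0.12 for replicates 1, 2 and 3. These medians are descriptions with no test. In bulk RNA, more cells of a kind or in a phase and more RNA per cell cannot be told apart.

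**Figure D2:**
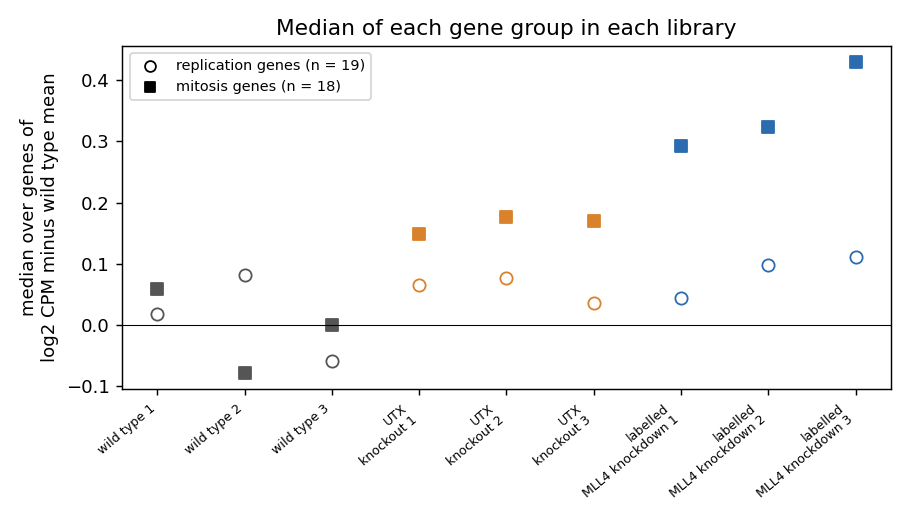
The median over the replication genes (open circles) and over the mitosis genes (filled squares) of log2 CPM minus the wild type mean, for each of the 9 libraries. Mitosis medians were -0.08 to 0.06 in wild type, 0.15 to 0.18 in the UTX knockout and 0.29 to 0.43 in the labelled MLL4 knockdown. The replication medians overlap.

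In the UTX knockout, 3 of the 19 replication genes rose against wild type and 0 fell, by edgeR's quasi-likelihood test at an adjusted p under 0.05. Over all 14772 genes tested, 6.55% rose and 8.92% fell in this comparison. The median log2 fold change of the 19 was 0.07, beside -0.01 over all genes. The 3 were Mcm4, Cdc45 and Chek1: a subunit of the MCM ring, a partner of the active helicase, and the kinase of the replication checkpoint. Among the 19, 1 was lower at an unadjusted p under 0.05, 0 by DESeq2 and 1 (Cdt1) with the replicate block, where 1895 of all 14772 genes were lower. The count of 3 was 0 without replicate 2 or 3 of the UTX knockout or replicate 3 of wild type, and 1 without replicate 2 of wild type or replicate 2 or 3 of the labelled MLL4 knockdown, which enter through the shared estimate of spread. The share of all genes called higher was then 2.19%, 2.92%, 5.21%, 5.27%, 4.52% and 4.61%, in that order. In the labelled MLL4 knockdown, Mcm7 and Cdc45 rose and Mcm5 fell, beside 10.8% of all genes that rose and 15.8% that fell, with a median of 0.08 for the 19 and -0.02 for all genes. Without replicate 3 of the labelled MLL4 knockdown 0 rose, where 5.69% of all genes rose. Without any 1 of its replicates 0 fell. Over all genes 1819, 1476 and 1552 fell without replicates 1, 2 and 3, beside 2338 with all libraries. The replicate block gave 2 lower (Mcm5 and Cdt1), where 2879 of 14772 genes were lower. Between both perturbed groups 0 of the 19 passed in either direction, with 6 at an unadjusted p under 0.05, where 13.0% of all genes were higher and 16.0% lower in the labelled MLL4 knockdown. DESeq2 called 3 of the 19 higher there and 0 lower, and the replicate block gave 3 higher (Gins1, Tyms and Ccne2) and 1 lower (Mcm4). With the block 17.0% of all genes were higher there, and 2908 of 14772 were lower.

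Among the genes of origin licensing, the 6 MCM subunits did not move as 1 unit. Mcm4 stood at 382, 374 and 409 CPM in wild type, at 433, 529 and 534 in the UTX knockout and at 395, 407 and 419 in the labelled MLL4 knockdown. All 3 knockout libraries were above every other library. It rose in the UTX knockout by 0.36 in log2 (SE 0.11, edgeR adjusted p = 0.0449), and its adjusted p rose to at most 0.163 when 1 library was left out (UTX knockout replicate 2), passing in 1 of the 9 such fits. Against the UTX knockout the labelled MLL4 knockdown was lower by a log2 fold change of -0.29, which missed the threshold (adjusted p = 0.0629) and passed it with the replicate number as a block (adjusted p = 0.0476).

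Mcm7 went another way. It stood at 546, 552 and 461 CPM in wild type, at 558, 531 and 515 in the UTX knockout and at 632, 661 and 646 in the labelled MLL4 knockdown, where all 3 libraries exceeded the other 6. It rose in the labelled MLL4 knockdown against wild type by 0.31 in log2 (SE 0.10, edgeR adjusted p = 0.0435). A single library left out took the adjusted p to at most 0.131, and the call was kept in 4 of 9 such fits. Mcm7 overlaps Ap4m1 and Cops6 on the opposite strand, and the strand setting of the counting is not given in the sources used here, so their reads cannot be told apart. Mcm5 was lower in both perturbed groups, at 571, 644 and 571 CPM in wild type, at 477, 519 and 493 in the UTX knockout and at 468, 494 and 455 in the labelled MLL4 knockdown. All 6 perturbed libraries were below the wild type. The log2 fold change was -0.26 in the UTX knockout (SE 0.10, adjusted p = 0.0960, not passed) and -0.33 in the labelled MLL4 knockdown (SE 0.10, adjusted p = 0.0284, passed in 6 of 9 fits with 1 library left out). Mcm5 lies on chromosome 8, whose genes had the lower medians given above in both perturbed groups. The part of the chromosome in this fall was not tested.

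The other subunits passed in no comparison. Mcm2 ranged over 555 to 591 CPM in wild type, 556 to 671 in the UTX knockout and 585 to 630.5 in the labelled MLL4 knockdown. Mcm3 was at 541 to 591, 596 to 679 and 547 to 560.2 CPM, and Mcm6 at 498 to 581, 556 to 640.3 and 524 to 546. For Mcm3 the UTX knockout libraries lay above all the others, with a log2 fold change of 0.18 against wild type (95% interval -0.03 to 0.39, adjusted p = 0.239). Mcm10, which helps to activate the helicase, ranged over 202 to 206, 204 to 226 and 203 to 211 CPM.

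Cdt1 and Cdc6, the loaders of MCM, did not pass in the unblocked fit. Cdt1 stood at 169, 242 and 261 CPM in wild type, at 132, 139 and 234 in the UTX knockout and at 131, 176 and 173 in the labelled MLL4 knockdown. Replicate 1 was the lowest library of each group, and the groups overlapped. The log2 fold changes were -0.41 (SE 0.23, adjusted p = 0.2499) and -0.48 (SE 0.23, adjusted p = 0.142) against wild type. With the replicate number as a block both passed, at adjusted p = 0.0473 and 0.0230. Cdt1 too lies on chromosome 8. Cdc6 ranged over 84.2 to 92.1, 87.8 to 109.6 and 81.1 to 92.2 CPM in the 3 groups.

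Cdc45 was the replication gene that rose in both perturbed groups. It stood at 70.1, 76.2 and 69.7 CPM in wild type, at 88.9, 99.3 and 95.3 in the UTX knockout and at 91.8, 93.8 and 99.3 in the labelled MLL4 knockdown. All 6 perturbed libraries exceeded the wild type. The log2 fold changes were 0.39 (SE 0.10, edgeR adjusted p = 0.0215) and 0.40 (SE 0.10, adjusted p = 0.0122), and both comparisons share the wild type libraries. Left-out libraries took the adjusted p to at most 0.102 and 0.0591, with the calls kept in 6 and 8 of 9 fits. Cdc45 overlaps Ufd1 on the opposite strand.

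The GINS subunits and the nucleotide enzymes passed in no comparison of the unblocked fit. Gins1 stood at 33.3, 38.4 and 27.3 CPM in wild type, at 37.0, 28.4 and 28.6 in the UTX knockout and at 44.9, 42.3 and 39.2 in the labelled MLL4 knockdown. The last group was above all other libraries. Its log2 fold change was 0.35 against wild type (adjusted p = 0.113) and 0.43 against the UTX knockout (adjusted p = 0.0562, and 0.0232 with the replicate block). Tyms, thymidylate synthase, was at 80.8, 92.1 and 67.3, at 80.7, 73.0 and 70.0, and at 102, 91.4 and 89.3 CPM. It overlapped between the labelled MLL4 knockdown and wild type but not with the UTX knockout, from which it differed by 0.34 in log2 (adjusted p = 0.0689, and 0.0352 with the block). Gins2, on chromosome 8, ranged over 44.7 to 59.5, 52.0 to 53.9 and 49.9 to 59.6 CPM. Pcna ranged over 290.3 to 345, 328 to 343 and 328 to 373, and Rrm1 and Rrm2, the subunits of ribonucleotide reductase, over 303 to 337, 310.0 to 334 and 344 to 368, and over 441 to 480.1, 484 to 511 and 479 to 495. For these 4 genes the intervals of every fold change held 0.

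Among the S phase regulators, Chek1 rose in the UTX knockout. It stood at 109, 106 and 108 CPM in wild type, at 119.5, 163 and 154 in the UTX knockout and at 110.3, 118 and 122 in the labelled MLL4 knockdown. Replicates 2 and 3 of the knockout were far above the rest, and replicate 1 lay within the range of the labelled MLL4 knockdown. The log2 fold change was 0.43 (SE 0.12, edgeR adjusted p = 0.0349), and leaving out 1 library kept the call in 3 of 9 fits, with an adjusted p of at most 0.151. Ccne1 and Ccne2, the E cyclins that drive entry into S phase, did not pass. Ccne1 ranged over 203 to 247, 171 to 214 and 203 to 229.9 CPM. Ccne2, on chromosome 4 and overlapping Ints8 on the opposite strand, ranged over 24.8 to 29.9, 24.0 to 26.2 and 28.1 to 36.9. Between the perturbed groups Ccne2 differed by 0.36 in log2 (adjusted p = 0.0661, and 0.0333 with the block).

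**Figure D3:**
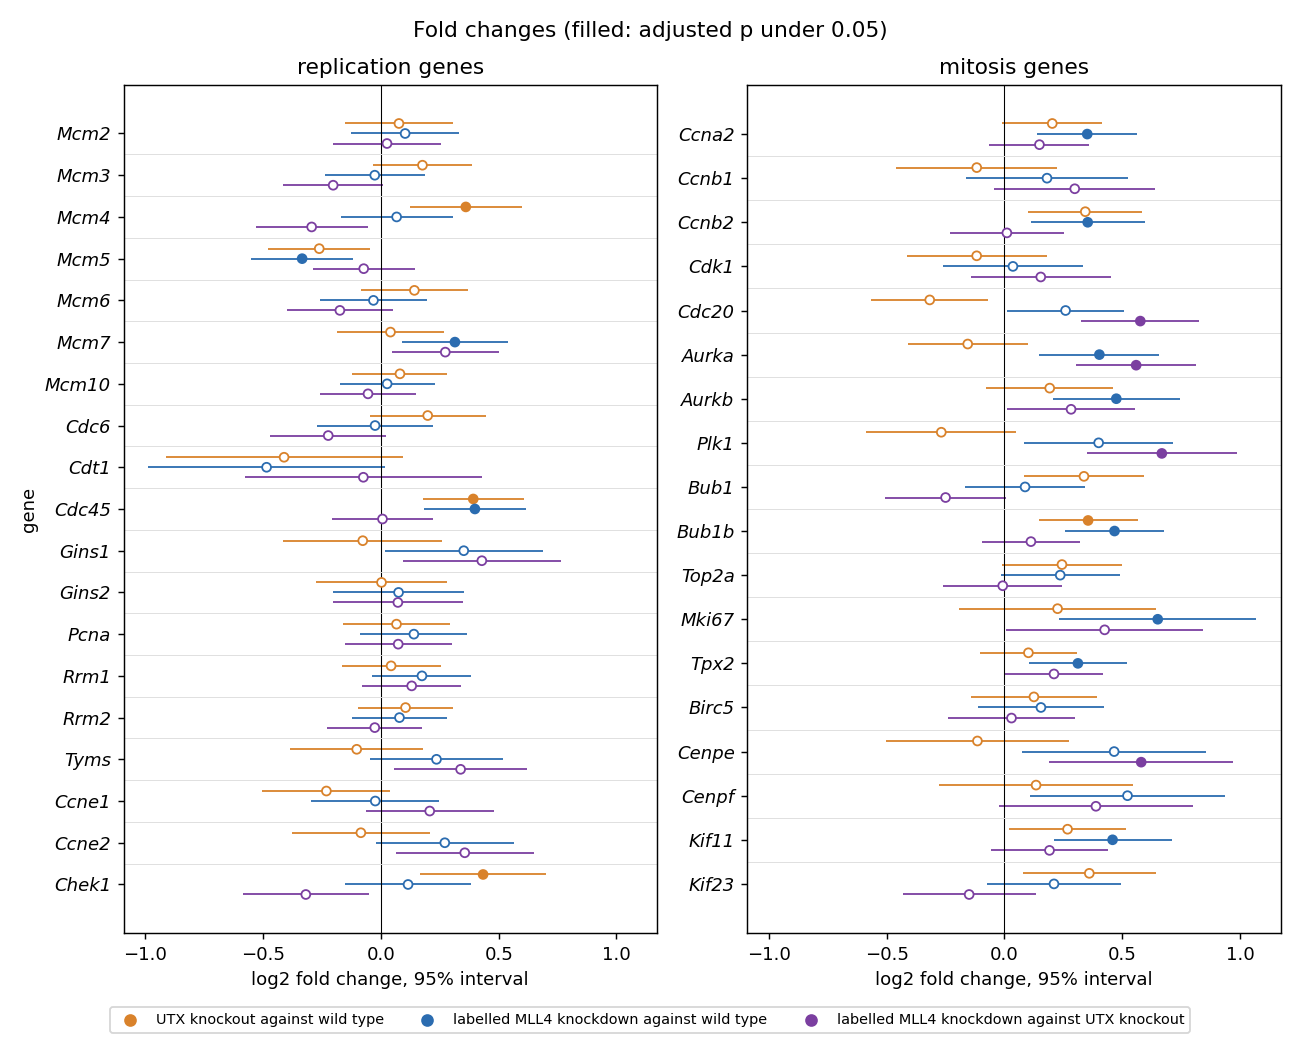
Log2 fold change with its 95% interval for each gene in the 3 comparisons, with filled points where the edgeR adjusted p was under 0.05. For the mitosis genes (right), all 18 estimates for the labelled MLL4 knockdown against wild type lie above 0, from 0.04 to 0.65, and 8 are filled; for the replication genes (left), the filled points are 3, 3 and 0.

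Mitosis genes rose in the labelled MLL4 knockdown: 8 of 18 passed as higher against wild type and 0 as lower. Over all 14772 genes the shares were 10.8% and 15.8%. All 18 estimates were above 0, with a median of 0.35 beside -0.02 over all genes, and 13 of 18 had all 3 libraries above all wild type libraries, beside 20.5% of all genes. The 8 were the cyclins Ccna2 and Ccnb2, the Aurora kinases Aurka and Aurkb, the checkpoint gene Bub1b, the proliferation marker Mki67, and the spindle genes Tpx2 and Kif11. In the UTX knockout 1 of 18, Bub1b, passed as higher and 0 as lower, beside 6.55% and 8.92% of all genes, with a median of 0.16 beside -0.01. Of the 18, 1 (Cdc20) was lower there at an unadjusted p under 0.05 and 0 by DESeq2. The block gave 3 higher, beside 10.5% of all genes at that setting. Between both perturbed groups 28.9% of all genes differed, 13.0% higher and 16.0% lower in the labelled MLL4 knockdown. Of the 18, 4 passed as higher there and 0 as lower, and 11 had no overlap and were higher, beside 25.7% of all genes. The 4 were Cdc20, Aurka, Plk1 and Cenpe. In both comparisons of the labelled MLL4 knockdown 0 of the 18 were lower at an unadjusted p under 0.05 and 0 by DESeq2.

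The count of 8 was 1, 2 and 4 without replicate 2, 3 and 1 of the labelled MLL4 knockdown. The share of all genes called higher fell too, to 5.27%, 5.69% and 7.10%, from 10.8% with all libraries. It was 11 without replicate 1 of wild type, 9 and 7 without replicates 2 and 3 of wild type, 8 without any 1 library of the UTX knockout and 11 with the replicate block, where 14.6% of all genes were called higher. In lane 2 alone, which holds replicates 1 and 3 of each group, 0 of 18 passed, and the share of all genes called higher was 2.89%. Lane 1 holds replicate 2 of each group alone, so it gives no test. Of the 8 genes, Bub1b passed in all 9 fits with 1 library left out. Kif11 passed in 8, Ccna2 and Aurkb in 7, Mki67 and Tpx2 in 6, Aurka in 5 and Ccnb2 in 4. Same-numbered libraries, which shared a lane number, gave median differences of 0.24, 0.36 and 0.37 in log2 over the 18 genes for replicates 1, 2 and 3, with 17, 16 and 18 genes higher. The share of all genes higher in these pairs was not computed.

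Of the genes that drive entry into mitosis, Ccna2, cyclin A, stood at 274, 244 and 267 CPM in wild type, at 289, 302 and 312 in the UTX knockout and at 321, 329 and 351 in the labelled MLL4 knockdown. The 3 groups were ordered with no overlap. It rose in the labelled MLL4 knockdown by 0.35 in log2 (SE 0.10, edgeR adjusted p = 0.0211), and its 0.20 in the UTX knockout did not pass (adjusted p = 0.178). Ccna2 overlaps Exosc9 on the opposite strand. Ccnb2, a B cyclin, stood at 166, 180.0 and 142 CPM in wild type, at 197, 210.4 and 211 in the UTX knockout and at 197, 207 and 219 in the labelled MLL4 knockdown. Both perturbed groups exceeded wild type and overlapped each other. It rose in the labelled MLL4 knockdown by 0.35 (SE 0.11, adjusted p = 0.0355). In the UTX knockout its 0.34 missed the threshold (adjusted p = 0.0563) and passed with the replicate block (adjusted p = 0.0439).

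Ccnb1 and Cdk1, the other B cyclin and its kinase partner, overlapped between the groups. Ccnb1 was at 376, 314 and 275 CPM in wild type, at 339.5, 307 and 241 in the UTX knockout and at 392, 384 and 317 in the labelled MLL4 knockdown. In each group replicate 1 was the highest and replicate 3 the lowest. The difference between both perturbed groups was 0.30 in log2 (adjusted p = 0.173, and 0.0320 with the block). Cdk1 ranged over 229.8 to 332, 236 to 276 and 272 to 302 CPM, with a log2 fold change of 0.04 (95% interval -0.26 to 0.33) in the labelled MLL4 knockdown.

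Cdc20, the activator of the anaphase-promoting complex, and the kinases Aurka and Plk1 differed between the UTX knockout and the labelled MLL4 knockdown. Cdc20 stood at 223, 292 and 242 CPM in wild type, at 212, 195 and 202 in the UTX knockout and at 306, 306 and 295 in the labelled MLL4 knockdown. The wild type libraries lay between both perturbed groups. The log2 difference between the perturbed groups was 0.58 (SE 0.11, edgeR adjusted p = 0.00383), and it passed in all 9 fits with 1 library left out. Against wild type the UTX knockout had a log2 fold change of -0.32 (adjusted p = 0.0806) and the labelled MLL4 knockdown of 0.26 (adjusted p = 0.115), and neither passed. Cdc20 lies on chromosome 4 and overlaps Elovl1 on the opposite strand.

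Aurka, the Aurora kinase of centrosomes and spindle poles, stood at 181, 185 and 166 CPM in wild type, at 183, 143 and 151 in the UTX knockout and at 234, 220.4 and 249 in the labelled MLL4 knockdown. The last group exceeded the other 6 libraries. Aurka rose against wild type by 0.40 in log2 (SE 0.12, edgeR adjusted p = 0.0255), kept in 5 of 9 fits with 1 library left out. It was 0.56 above the UTX knockout (SE 0.12, adjusted p = 0.00496), kept in all 9. Tpx2, which activates Aurora A on the spindle, stood at 367, 336 and 362, at 387, 375 and 381 and at 452, 416 and 455 CPM. The 3 groups were again ordered with no overlap, and the rise of 0.31 in the labelled MLL4 knockdown passed (SE 0.09, adjusted p = 0.0309).

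Plk1, the Polo kinase, stood at 154, 158 and 194 CPM in wild type, at 151, 114 and 155 in the UTX knockout and at 199, 228 and 241 in the labelled MLL4 knockdown. Again the last group was above the other 6 libraries. Between the perturbed groups the log2 difference was 0.67 (SE 0.14, edgeR adjusted p = 0.00620), which passed in all 9 fits with 1 library left out. Against wild type the 0.40 of the labelled MLL4 knockdown missed the threshold (adjusted p = 0.0619) and passed with the block (adjusted p = 0.0244). Aurkb, the Aurora kinase of the chromosomal passenger complex, was at 103, 127 and 109.9, at 126, 130.5 and 131 and at 133, 168 and 170.0 CPM. It rose in the labelled MLL4 knockdown by 0.47 (SE 0.12, adjusted p = 0.0159), whose replicate 1 was close to the highest wild type library, and its 0.28 above the UTX knockout did not pass (adjusted p = 0.106). Birc5, survivin, is a subunit of the same complex and ranged over 111 to 146, 135 to 137 and 129.5 to 153 CPM, with overlap between all groups and no call.

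**Figure D4:**
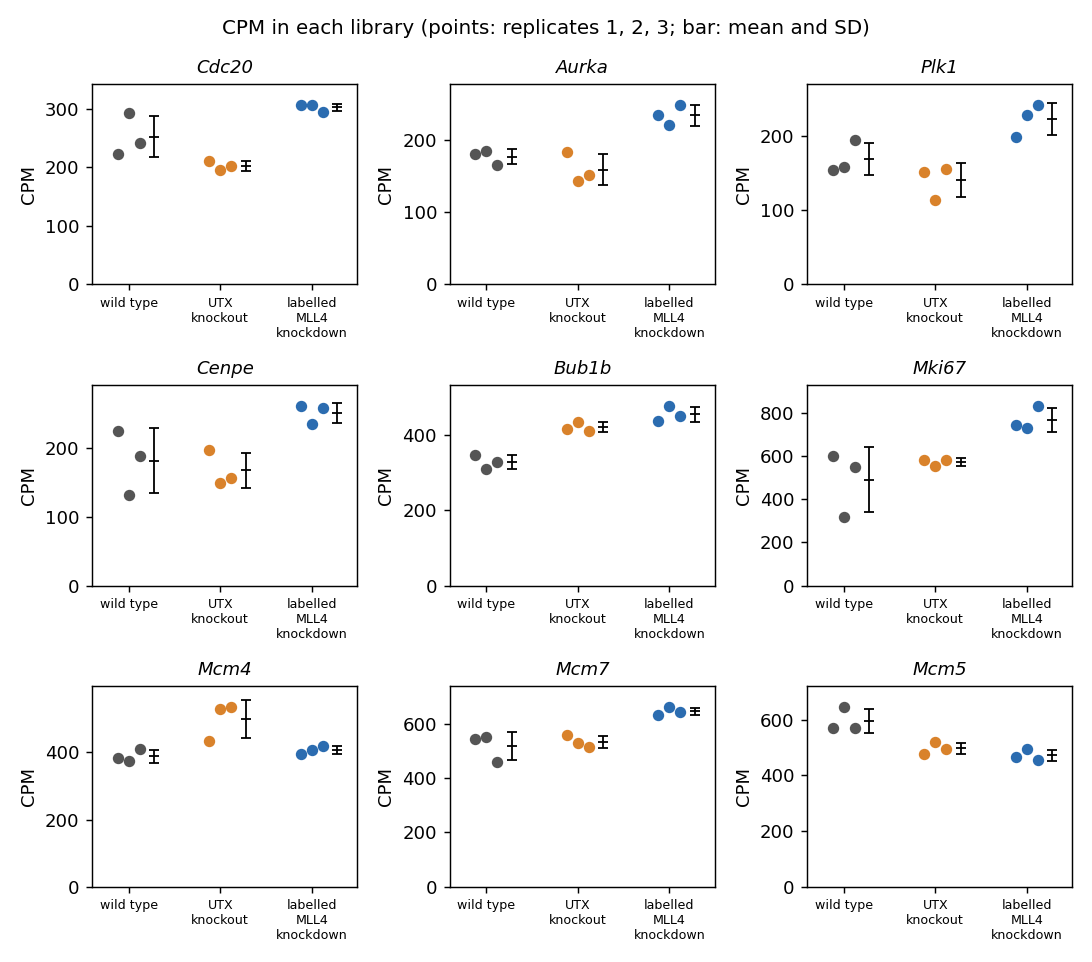
CPM of 9 of the genes in each library (vertical axes, starting at 0), with points for replicates 1, 2 and 3 from left to right and a bar for the mean with its SD in each group. Cdc20, Aurka, Plk1 and Cenpe are highest in the labelled MLL4 knockdown, Bub1b is above wild type in both perturbed groups, Mcm4 is highest in the UTX knockout, and Mcm5 is lower in both.

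Bub1b, which encodes the spindle checkpoint protein BubR1, rose in both perturbed groups. It stood at 347, 309.9 and 328 CPM in wild type, at 415, 434 and 411 in the UTX knockout and at 435, 475 and 451 in the labelled MLL4 knockdown. The 3 groups did not overlap. The log2 fold change was 0.35 in the UTX knockout (SE 0.10, edgeR adjusted p = 0.0297), kept in 4 of 9 fits with 1 library left out, and 0.47 in the labelled MLL4 knockdown (SE 0.10, adjusted p = 0.00485), kept in all 9. Its partner kinase Bub1 had another pattern, at 402, 353 and 372, at 407, 531 and 486 and at 378, 414 and 406 CPM. Its 3 UTX knockout libraries were above wild type, by 0.34 in log2 (SE 0.12, adjusted p = 0.0724), and the labelled MLL4 knockdown overlapped wild type at 0.09 (adjusted p = 0.620).

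Kif11, the motor that separates spindle poles, stood at 332, 255 and 319 CPM in wild type, at 355, 381 and 355 in the UTX knockout and at 411, 428 and 407 in the labelled MLL4 knockdown. The groups were ordered with no overlap, and the labelled MLL4 knockdown rose by 0.46 in log2 (SE 0.11, edgeR adjusted p = 0.0130). Kif23, the motor of the midzone needed for cytokinesis, stood at 149.9, 160.4 and 175, at 181, 232 and 211 and at 163, 191 and 208 CPM. Its UTX knockout libraries were all above wild type, by 0.36 in log2 (SE 0.13, adjusted p = 0.0805, and 0.0280 with the block).

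Top2a was the most abundant mitosis gene, at 1529.9, 1161 and 1333 CPM in wild type, at 1577, 1658 and 1529.9 in the UTX knockout and at 1561, 1638 and 1541 in the labelled MLL4 knockdown. Wild type replicates 2 and 3 were the lowest libraries. Neither the 0.24 in the UTX knockout (adjusted p = 0.174) nor the 0.24 in the labelled MLL4 knockdown (adjusted p = 0.154) passed.

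The 3 longest transcripts of the 37 were Mki67, which coats mitotic chromosomes, and Cenpe and Cenpf, a motor and a structural protein of the kinetochore. Mki67 stood at 600.2, 318 and 548 CPM in wild type, at 581, 551 and 580.3 in the UTX knockout and at 744, 727 and 829 in the labelled MLL4 knockdown. Cenpe was at 225, 131 and 189, at 197, 149 and 157 and at 261, 234 and 258 CPM. Cenpf was at 381, 202 and 328, at 368, 319.5 and 313 and at 419, 441 and 449.8 CPM. In all 3 genes the labelled MLL4 knockdown exceeded the other 6 libraries, and wild type replicate 2 was the lowest of the 9. Mki67 rose against wild type by 0.65 in log2 (SE 0.19, edgeR adjusted p = 0.0272). Cenpe at 0.46 (adjusted p = 0.0749) and Cenpf at 0.52 (adjusted p = 0.0605) missed the threshold and passed with the block (adjusted p = 0.0111 and 0.0221). Cenpe was also 0.58 above the UTX knockout (SE 0.18, adjusted p = 0.0308, kept in 4 of 9 fits with 1 library left out).

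Wild type replicate 2 differed from the other wild type libraries by transcript length across the whole table. Its log2 CPM minus the mean of replicates 1 and 3 had a median of 0.49 for genes of about 837 bases and of -0.80 for genes of about 11588 bases, over genes above 10 CPM. Among the 37, Mki67 (10061 bases) differed by -0.85, Cenpf (11130 bases) by -0.81 and Cenpe (7910 bases) by -0.65, while Cdk1 (4375 bases) differed by 0.37. With each library's trend with length removed, 11 of 18 mitosis genes passed in the labelled MLL4 knockdown against wild type, 3 in the UTX knockout and 7 between the perturbed groups, beside 12.04%, 8.60% and 14.99% of all genes called higher at this setting. Mki67 then rose by 0.45 (adjusted p = 0.00847), and Cenpf at 0.30 passed (adjusted p = 0.0467), while Cenpe at 0.29 did not (adjusted p = 0.0901). For replication genes the counts were then 3 higher and 1 lower in the labelled MLL4 knockdown, 3 and 0 in the UTX knockout, and 3 and 2 between the perturbed groups. Of all 14772 genes, 2619, 1625 and 2761 were lower at this setting, in the same order.

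**Figure D5:**
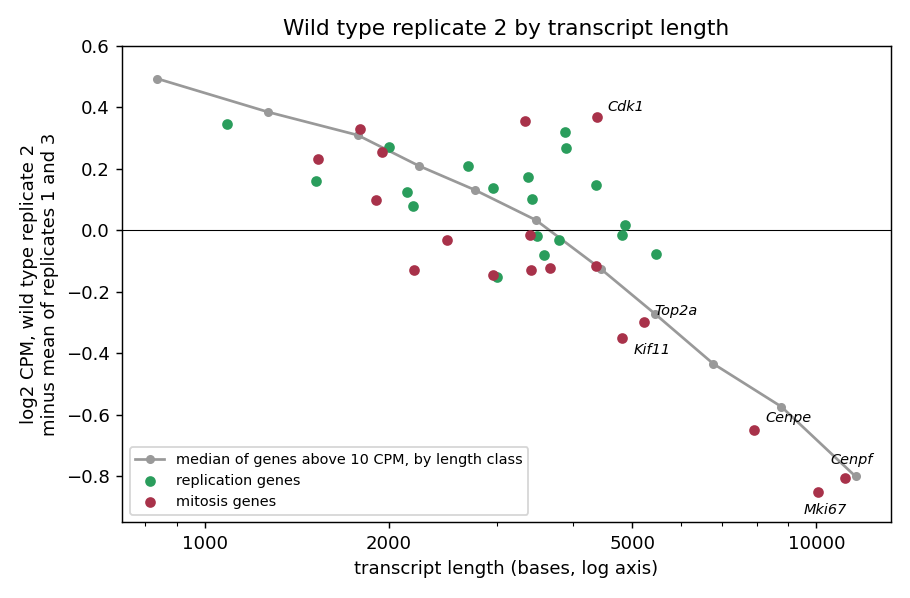
Log2 CPM of wild type replicate 2 minus the mean of wild type replicates 1 and 3 (vertical axis) against transcript length (log axis), as the median of all genes above 10 CPM in classes of length (grey line) and for each replication and mitosis gene (points). The median falls from 0.49 for the shortest class to -0.80 for the longest, and Mki67, Cenpf and Cenpe lie at the low end.

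Other genes of the same processes were read from lists of 63 further replication genes, 83 further mitosis genes and 51 cell cycle regulators, all of which were tested. Of the 63, the UTX knockout had 4 higher and 7 lower than wild type and the labelled MLL4 knockdown 4 higher and 8 lower, with medians of 0.07 and -0.01. Over all genes 6.55% rose and 8.92% fell in the former and 10.8% and 15.8% in the latter, which is the background for these counts and for those of the next lists. Rrm2b, the subunit of ribonucleotide reductase that p53 induces, stood at 17.5, 14.7 and 20.8 CPM in wild type, at 56.1, 74.2 and 70.9 in the UTX knockout and at 26.8, 42.8 and 42.6 in the labelled MLL4 knockdown. It rose by 1.92 and by 1.08 in log2 (adjusted p = 0.00041 and 0.00277). Dut, which removes dUTP, fell by 0.80 in the UTX knockout, where the histone chaperone Nasp, on chromosome 4, fell by 0.65 and Brca1 rose by 0.74. In the labelled MLL4 knockdown the origin recognition subunits Orc1, on chromosome 4, and Orc6, on chromosome 8, fell by 0.70 and 0.65 and the fork protein Tipin by 0.61. Of these named genes, Dut, Orc1 and Tipin were called lower in both perturbed groups. Between the perturbed groups, where 5 were higher and 8 lower in the labelled MLL4 knockdown beside 13.0% and 16.0% of all genes, Brca1, the single-strand binding protein Rpa1 and Uhrf1 differed by -0.77, -0.53 and -0.45 and Nasp by 0.55.

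Of the 83 further mitosis genes, the UTX knockout had 4 higher and 5 lower than wild type, the labelled MLL4 knockdown 22 higher and 4 lower, and 24 were higher and 3 lower in the labelled MLL4 knockdown than in the UTX knockout. The medians were 0.05, 0.25 and 0.23. All genes gave 6.55% higher and 8.92% lower, 10.8% and 15.8%, and 13.0% and 16.0% in these comparisons. In the UTX knockout the phosphatase gene Cdc25b rose by 0.96 and securin (Pttg1) by 0.92, while the kinase gene Melk, on chromosome 4, fell by 0.60 and the kinetochore gene Cenpn, on chromosome 8, by 0.62. In the labelled MLL4 knockdown Nde1 stood at 152, 152 and 164 CPM beside 95.04, 105 and 94.0 in wild type, a rise of 0.67. Bora, an activator of Aurora A and Plk1 listed as 6720463M24Rik, rose by 0.72 and the kinesin Kif4 by 0.50, and Cenpt, on chromosome 8, fell by 0.68. Of the genes named here, Cdc25b was called higher and Melk lower in both perturbed groups against wild type. Between the perturbed groups Bora was higher by 0.83 and Cdkn3 by 0.90, while the cohesin protector Sgol2 differed by -0.85 and Pttg1 by -0.999.

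Of the 51 regulators, the UTX knockout had 4 higher and 7 lower than wild type, the labelled MLL4 knockdown 11 higher and 9 lower, and 15 were higher and 6 lower between the perturbed groups, with medians of -0.06, 0.14 and 0.11, against the same shares of all genes. E2f1, an activator of replication genes, stood at 72.7, 66.3 and 63.1 CPM in wild type, at 103, 109 and 112 in the UTX knockout and at 90.4, 87.6 and 85.3 in the labelled MLL4 knockdown, and rose by 0.68 in the UTX knockout. Its dimer partner Tfdp1 fell there by 0.53 and Cdc16, a subunit of the anaphase-promoting complex, by 0.59, both on chromosome 8, while Btg1 rose by 0.71. In the labelled MLL4 knockdown E2f2, on chromosome 4, rose by 1.27, E2f5 by 0.67 and Lin9, a subunit of the complexes that bind CHR elements, by 0.74. Among the named regulators, E2f1, E2f2 and Btg1 were called higher and Tfdp1 lower in both perturbed groups against wild type. The cyclin-dependent kinase inhibitor Cdkn1a (p21) stood at 22.1, 26.0 and 21.8 CPM in the labelled MLL4 knockdown, beside 52.7, 47.1 and 40.3 in wild type, and fell by 1.00. Against the UTX knockout, cyclin D1 (Ccnd1) was higher by 1.33, and Cdkn1a, the inhibitor Cdkn2c, on chromosome 4, and the kinase Cdk2 differed by -1.20, -1.59 and -0.72. In each named case of these 3 lists the adjusted p was under 0.05 and the 2 groups of libraries did not overlap. The named genes were chosen as the 4 of smallest p in each list and comparison. Both properties thus follow largely from that choice and are no further evidence.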

How the data were processed

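RNA sequencing was read from 1 deposited table of whole-number read counts per gene, made by the authors, with 1 column for each of the 9 libraries. Per the submitters' processing notes, HTSeq 0.6.1 and STAR 2.4 were used and 2 builds (hg19, mm9) are named, without saying for what. Which gene models, strand option or filters went into the counting is not given in the sources used here. Differences in these counts were tested by edgeR's quasi-likelihood test (version 4.0.16, R 4.3.3; two-sided, TMM scaling, filterByExpr by group, all 9 libraries, group as the only term), with Benjamini-Hochberg adjustment over the 14772 genes tested. CPM values use TMM factors. Standard errors were derived from the log2 fold change and the F statistic of the test, and the 95% intervals from these standard errors. An exact permutation test of 3 against 3 libraries has p = 0.1 as its smallest value and was not used. No 2 libraries of a group agreed within sampling noise.

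Deviations from the group means were correlated between libraries of the same number over all tested genes (correlations of 0.168 to 0.467). By the titles, lane 1 carried replicate 2 of every group and lane 2 carried the rest. The labels state no pairing, so the main fit held no block, and variation shared by same-numbered libraries stayed in its spread. The fit with the replicate number as a block was run as an alternative. Over genes above 5 CPM the lowest correlation was 0.0764. The blocked adjusted p is given where it changes the call of a named gene. Transcript lengths and overlapping genes came from a GRCm38 annotation, which is not the build of the counts.

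Alternatives were DESeq2 1.42.0 and its size factors, no filter, the replicate block, lane 2 alone, each library left out, removal of a trend with transcript length (loess on log length, span 0.5), and genes outside chromosomes 4, 8 and Y. The members and lists were chosen with earlier results of these data known. Named genes are all members, the targeted genes, and from each further list the 4 tested genes of smallest p in each comparison.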

Additional observations from a re-analysis of the deposited data

How the results depend on the processing

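No member changed direction while called, in any of the alternatives run. Among 1776 values compared, 62 changed sign while passing under neither setting. The counts of members called moved as follows. In the UTX knockout against wild type, replication genes higher went from 3 to 0 in lane 2 alone and 2 without the filter. Those lower went from 0 to 1 with the replicate block and 2 with the length trend removed and the block. Mitosis genes higher there went from 1 to 3 with DESeq2, 0 without the filter, 3 with the block, 0 in lane 2 alone, 3 with the length trend removed and 5 with both, and those lower from 0 to 1 with both. In the labelled MLL4 knockdown against wild type, replication genes higher went from 2 to 0 in lane 2 alone, 3 with the length trend removed and 5 with the length trend removed and the block. Those lower went from 1 to 0 without the filter, in lane 2 alone and outside chromosomes 4, 8 and Y (Mcm5 lies on 8), and to 2 with the block, alone or with the length trend removed. Mitosis genes higher went from 8 to 0 in lane 2 alone and to 10 with DESeq2. They went to 11 without the filter, with the block and with the length trend removed, and to 12 with the length trend removed and the block. Between the perturbed groups, replication genes higher went from 0 to 3 with DESeq2, 1 without the filter, 3 with the block, 3 with the length trend removed and 4 with both, and those lower from 0 to 1, 2 and 3 with the block, the length trend removed and both. Mitosis genes higher there went from 4 to 2 in lane 2 alone, 3 outside chromosomes 4, 8 and Y, 5 with the block, 7 with the length trend removed and 8 with both. In lane 2 alone 0.129%, 2.89% and 4.23% of all genes were called higher in the 3 comparisons, in the order above. Without the filter these shares were 4.59%, 7.23% and 8.25%, and 1504, 2460 and 2279 of 24396 genes were lower. With the length trend removed and the block they were 13.4%, 16.8% and 20.1%, and 2363, 3284 and 3449 of 14772 genes were lower. DESeq2 called 1344, 1951 and 2225 genes higher, of 16054, 16518 and 16054 tested. The replicate block changed no call of a member beyond those given with their blocked values.

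Leaving out 1 library gave 0 to 3 replication genes higher, 0 lower, 0 to 3 mitosis genes higher and 0 to 1 lower in the UTX knockout, 0 to 3, 0 to 1, 1 to 11 and 0 in the labelled MLL4 knockdown, and 0 to 4, 0 to 2, 3 to 6 and 0 to 1 between the perturbed groups. In these fits 1 group has 2 libraries. The 3 replication genes of the UTX knockout fell to 0 without replicate 2 or 3 of that group or replicate 3 of wild type. The share of all genes called higher fell as well, from 6.55% to 2.19%, 2.92% and 5.21%. The causes were not tested. With 3 libraries a group, the 95% interval of a log2 fold change spanned a median of 0.46 for replication and 0.52 for mitosis genes, and the number of libraries limits the precision.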
